A study of Mus musculus with 9 samples.

Results

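Semaphorins are guidance proteins that attract or repel growing axons and migrating cells, and plexins and neuropilins are the receptors that bind them. The genes described here are the 31 whose symbols follow the family names of class 3 to class 7 semaphorins (20 genes), plexins A to D (9 genes) and neuropilins (2 genes), out of 30406 genes measured in every library. The rule uses the names alone, and the families were chosen with earlier results of these data known. Their messenger RNA was counted cell by cell in cultures of mouse embryonic fibroblasts (MEFs), part of which was turned into induced neurons (iNs).

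The MEFs came from midgestation mouse embryos without head and heart, with several embryos pooled in a dish and their sex not determined per the study's methods. Lentivirus carrying genes of neuronal transcription factors was added to all cultures, and doxycycline turned these genes on from day 0. The groups were WT cells, cells labelled Per1-/- (allele Per1tm1Drw) and cells labelled Per2-/- (allele Per2tm1Drw), each on days 4, 7 and 10, with 1 single-cell library for each genotype and day and 9 libraries in all. Per1 and Per2 encode repressors of the circadian clock, and the mutant alleles were carried by all cells of a culture, not by 1 cell type.

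Of the barcodes, 81943 passed the depth and mitochondrial limits, 7158 were left out as likely doublets and 74785 were kept. Clusters were named from marker genes, and the names carry "-like" because they were rebuilt here. A library held 153 to 1390 macrophage-like cells, 173 to 1743 neuron-like cells, 1852 to 5260 fibroblast-like cells and 113 to 1006 Schwann-like cells. The library of WT on day 10 stood apart: 55.0% of its barcodes passed, its median depth was 3528 unique molecular identifiers (UMI) per barcode against 16029 to 25769 in the others, and 46.4% of its kept cells were in unnamed clusters. That share was 38.7% in Per2-/- on day 10, 31.9% in Per1-/- on day 7 and 14.0% to 22.3% in the remaining libraries. Pairs of libraries shared up to 365 barcodes, or 2.89% of a library. Per1-/- on day 4 shared 365 with Per2-/- on day 7 and 210 with WT on day 4. WT on day 4 shared 132 with Per2-/- on day 7, and other pairs shared at most 63. The 3′ tags do not test the knockouts: Per1 was at 9.17 to 10.3 CPM (UMI brought to an equal total in each sum) in the libraries labelled Per1-/- against 6.34 to 7.95 in WT, and Per2 was at 4.97 to 6.40 in those labelled Per2-/- against 2.58 to 3.02 in WT. Xist, the RNA of the inactive X chromosome, was at 0.0674 and 0.0594 CPM in Per1-/- on days 7 and 10. The other libraries were at 347 to 994 CPM. On days 7 and 10 the sex of the embryos therefore cannot be told apart from the Per1-/- genotype. In Per1-/- on day 4 Xist was at 487 CPM, so within Per1-/- the sex of the embryos and the day cannot be told apart either.

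In these families the class 3 semaphorins are secreted and use neuropilins as binding partners, with A-type plexins as the signaling chain, whereas classes 4 to 7 are tied to the membrane and mostly bind plexins directly. Plexins are transmembrane proteins that switch off Ras and Rap GTPases and steer the actin skeleton. In the nervous system they guide axons, Schwann cells and fibroblasts supply many of the ligands, and macrophages use some of the same proteins for migration and immune signaling.

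Promoter sequences are shown first because the mutated genes act on the clock and because several of these genes differed between cell types whose regulators bind known short motifs. RefSeq promoters on GRCm38.p6, from 250 bases before to 50 bases after a start, were found for 26 of the 31 genes (37 promoters). The clock E-box CACGTG occurred in 3 of the 37 promoters (Sema3e, Sema4b and Sema6d) and in 7.15% of 32851 promoters of all genes. The Sema4b promoter at chr7:80186620-80186919 held none of the motifs searched, and the Sema6d promoter at chr2:124653331-124653630 held no E-box. ACAAAG, a core that SOX proteins such as SOX10 of Schwann cells bind, occurred in 8 of the 37 promoters (Plxnb1, Plxnb2, Plxnb3, Sema3a, Sema3c, Sema3d, Sema4f and Sema6d) and in 18.7% of all promoters. CAGCTG, searched as well, was in 6 of the 37 promoters (Plxnb3, Sema3g, Sema4d, Sema4g, Sema6c and Sema7a) and in 16.3% of all. GAGGAAGT, the motif of the macrophage factor PU.1, and TTATGTAA, the clock D-box, were in no promoter of these genes and in 3.20% and 0.938% of all. Of the genes with ACAAAG, Plxnb1, Plxnb3, Sema3c and Sema4f had their highest mean level among the main classes in Schwann-like cells. Sema3a and Sema3d were highest in fibroblast-like, Plxnb2 in macrophage-like and Sema6d in neuron-like cells. The promoters of Plxnd1, Sema3e, Sema3g and Sema4c, highest in Schwann-like cells, held no ACAAAG. Whether a motif was more frequent in these promoters than in all was not tested. Both strands were searched, and in the windows shown no motif overlaps another. A match is a string of letters and not a bound site. The 3 windows below are of the genes to which the later results return, each 100 bases long with the motif in capitals. They show the E-box of Sema4b, whose macrophage-like level had the smallest genotype p, the E-box of Sema6d, which rose in macrophage-like cells, and the SOX core of Sema4f, which together with Plxnb3 had the largest folds of Schwann-like over fibroblast-like cells. The Sema4f window has the SOX core as its reverse complement. The Sema4b window lies before a start inside the annotated gene (chr7:80186841-80226527).
Sema4b, chr7:80198436-80198535, plus strand: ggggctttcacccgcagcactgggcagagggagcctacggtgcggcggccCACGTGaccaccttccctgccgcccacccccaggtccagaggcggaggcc
Sema6d, chr2:124089869-124089968, plus strand: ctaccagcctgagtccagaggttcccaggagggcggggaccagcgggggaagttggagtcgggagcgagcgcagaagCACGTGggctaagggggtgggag
Sema4f, chr6:82939770-82939869, minus strand: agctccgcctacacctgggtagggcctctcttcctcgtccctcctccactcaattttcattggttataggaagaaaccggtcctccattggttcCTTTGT
The motif began 102, 23 and 6 bases before the start in the order shown.

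Each of the 4 main cell classes held the highest mean level of some of the 31 genes. Levels are CPM, counted over the summed UMI of a class within 1 library, with the mean and SD over the 9 libraries, and they are not divided by gene length, so a level is compared between classes and not between genes. Both neuropilins, Plxnb2, Plxnc1, Sema4a, Sema4b and Sema4d (7 genes) were highest in macrophage-like cells. Plxna2, Plxna3, Sema4g, Sema5b, Sema6a, Sema6b, Sema6c, Sema6d and Sema7a (9 genes) were highest in neuron-like cells. Plxna1, Sema3a, Sema3d, Sema3f and Sema5a (5 genes) were highest in fibroblast-like cells, and the remaining 10 genes in Schwann-like cells. The class of the highest mean changed for Sema6d with cells classed by markers, for Sema5b with clusters led by neuronal genes included, for Sema4b with 1 cluster for each class and for Plxna2 without WT on day 4. Summed over the 20 semaphorins, the ligand level was 147 ± 31.4 CPM in macrophage-like, 407 ± 38.3 in neuron-like, 466 ± 95.8 in fibroblast-like and 655 ± 72.8 in Schwann-like cells (SD, n = 9 libraries). Macrophage-like cells, lowest in this sum, were highest in the sum of the 2 neuropilins, with 453 ± 63.0 CPM, 276 ± 45.8 in fibroblast-like, 154 ± 29.6 in Schwann-like and 53.5 ± 14.6 in neuron-like cells. The sum of the 9 plexins was 446 ± 32.0 CPM in macrophage-like and 499 ± 96.5 in Schwann-like cells, which overlapped, and was lower in neuron-like (270 ± 36.8) and fibroblast-like cells (203 ± 18.4).

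**Figure D1:**
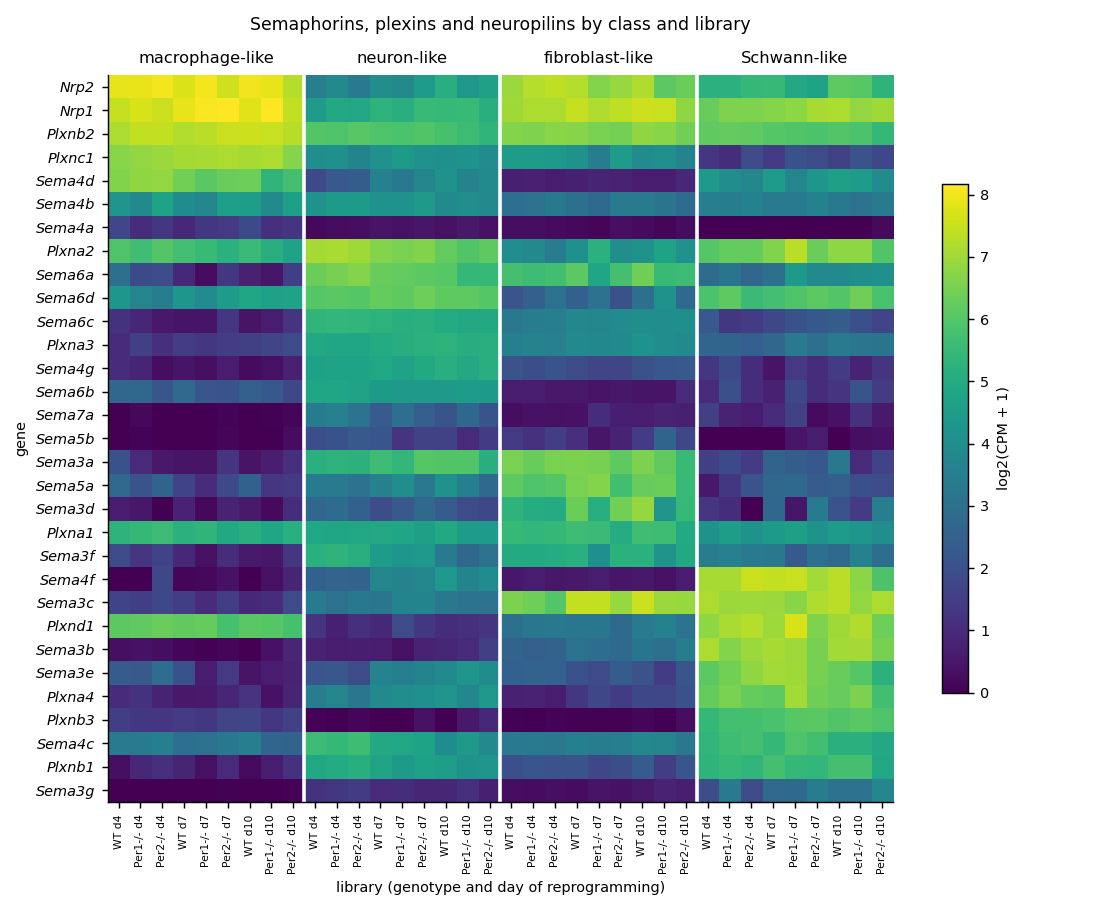
Level of the 31 genes (rows) in each library (columns, genotype and day) of the 4 classes, as log2(CPM + 1) in color. Rows are ordered by the class with the highest mean, and the neuropilins at the top are brightest in the macrophage-like block, where they reach 287 CPM (Nrp1).

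Among the 4 main classes, the secreted class 3 ligands were highest in fibroblast-like and Schwann-like cells and lowest in macrophage-like cells. The class 3 sum was 7.07 ± 3.86 CPM in macrophage-like cells, 93.0 ± 11.7 in neuron-like, 298 ± 75.3 in fibroblast-like and 360 ± 33.7 in Schwann-like cells. Sema3a, the classic collapsing signal for growth cones, was at 45.6 to 93.5 CPM in fibroblast-like cells (median 89.9) and at 34.6 to 63.1 in neuron-like cells (median 41.3). It was at 0.345 to 3.15 CPM in macrophage-like and 0.999 to 8.56 in Schwann-like cells, well below both. Sema3c, which guides neural crest and vascular cells, was at 62.6 to 180 CPM in fibroblast-like and 105 to 160 in Schwann-like cells, 2 ranges that overlapped, and no difference was called between these classes (log2 fold −0.13 ± 0.15 SE, adjusted p = 0.468). Sema3d was at 53.4 ± 32.7 CPM (highest 117) in fibroblast-like cells and at most 10.2 elsewhere among the 4 classes. Sema3b and Sema3e were Schwann-like ligands by level, at 88.7 to 142 and 37.4 to 130 CPM there against at most 10.1 and 18.3 in any other of the 4 classes. Sema3f, a repellent that acts through Nrp2, was at 16.1 to 36.4 CPM in fibroblast-like and 5.77 to 38.4 in neuron-like cells. Sema3g stayed low, with its highest mean of 7.14 ± 3.21 CPM in Schwann-like cells and 2 UMI in all macrophage-like cells. In the genome (GRCm38, GENCODE M21) Sema3d (chr5:12383385-12588948), Sema3a (chr5:13125414-13602565), Sema3e (chr5:14025276-14256689) and Sema3c (chr5:17574281-17730268) lie in this order on the plus strand. By the mean among the 4 main classes, the first 2 were highest in fibroblast-like and the last 2 in Schwann-like cells. For Sema3c these 2 classes did not differ by the test given above.

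Among the membrane-bound class 4 ligands, Sema4d marked macrophage-like cells and Sema4f Schwann-like cells. Sema4d, a ligand of Plxnb1 that T cells and macrophages are known to carry, lies on chr13:51685529-51793747 (minus strand). Its level in macrophage-like cells was 98.0, 111 and 113 CPM on day 4, 85.6, 66.5 and 78.1 on day 7, then 81.7, 40.0 and 53.4 on day 10, for WT, Per1-/- and Per2-/- in this order. All 9 values were above the highest Schwann-like value of 24.0 CPM, and fibroblast-like cells were at 0.555 to 0.903 CPM. Sema4f (chr6:82911885-82939769, minus strand) was at 57.7 to 181 CPM in Schwann-like cells, at 4.80 to 19.6 in neuron-like cells and at most at 2.39 in the other 2 classes. In 3 macrophage-like libraries no Sema4f UMI was counted. In WT on day 4, 1 of these libraries, 3 UMI would be 0.788 CPM. Sema4b was at 12.4 to 25.6 CPM in macrophage-like and 13.5 to 21.1 in neuron-like cells, which overlapped. Sema4c was highest in Schwann-like (44.2 ± 9.99 CPM) and neuron-like cells (29.9 ± 13.2), and Sema4g in neuron-like cells (28.6 ± 3.87). Sema4a, an immune semaphorin, was low everywhere, with 0.860 to 2.59 CPM in macrophage-like cells and 2 UMI in all Schwann-like cells.

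The class 6 semaphorins signal through A-type plexins. All 4 had their highest mean among the main classes in neuron-like cells, but for Sema6a and Sema6d 1 other class did not differ from them by the test. Sema6a was at 70.9 ± 19.0 CPM in neuron-like and 52.9 ± 15.6 in fibroblast-like cells, and these did not differ by the test (log2 fold −0.06 ± 0.26, adjusted p = 0.843). Sema6b was at 20.2 to 27.6 CPM in neuron-like cells, above the 2.44 to 5.86 of macrophage-like cells in every library. Sema6c was at 29.6 to 41.6 CPM in neuron-like cells and at most 15.7 in the other 3 main classes. Sema6d was at 63.1 to 82.0 CPM in neuron-like and 46.1 to 82.7 in Schwann-like cells, with no difference called between them (−0.05 ± 0.19, adjusted p = 0.833). Of the class 5 ligands, Sema5a was at 44.9 to 100 CPM in fibroblast-like cells and at most 17.0 in the other 3 classes, and Sema5b was at 5.08 CPM or below in all 4. Sema7a, the lipid-anchored ligand of Plxnc1, was at 3.35 to 10.8 CPM in neuron-like cells, and 7 UMI of it were counted in all macrophage-like cells.

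The receptors divided the classes further. Nrp1, the shared coreceptor for Sema3a and vascular growth factor, was at 169 to 287 CPM in macrophage-like, 112 to 185 in fibroblast-like, 76.0 to 143 in Schwann-like and 21.5 to 45.0 in neuron-like cells. The first 3 ranges overlapped with their neighbors, and neuron-like cells lay below all of them. Nrp2, the coreceptor for Sema3f and Sema3g, followed the same order with 154 to 262, 68.5 to 167, 26.0 to 69.1 and 9.29 to 34.1 CPM. At 3000 UMI per cell, a Nrp1 UMI was found in 45.9 ± 7.15% of macrophage-like and 9.21 ± 2.94% of neuron-like cells, whose median depths before thinning were 18271 to 35285 and 8540 to 16376 UMI. Plxnc1, the Sema7a receptor of white blood cells, was at 101 to 142 CPM in macrophage-like cells, 9.84 to 22.0 in fibroblast-like, 11.9 to 20.8 in neuron-like and 1.12 to 3.25 in Schwann-like cells. Plxnd1, the Sema3e receptor of blood vessels, was at 80.7 to 205 CPM in Schwann-like cells and 54.0 to 78.2 in macrophage-like cells, and at most at 11.1 and 2.77 in fibroblast-like and neuron-like cells. Plxnb3 (chrX:73757090-73772514, plus strand) was at 42.9 to 67.0 CPM in Schwann-like cells, against 1.44 to 2.26 in macrophage-like cells and less than 1 CPM in every neuron-like and fibroblast-like library. Plxnb2 was at 142 to 187 CPM in macrophage-like, 84.5 to 112 in fibroblast-like, 42.3 to 72.5 in Schwann-like and 39.9 to 64.9 in neuron-like cells. Plxnb1, the Sema4d receptor, was at 28.1 to 53.7 CPM in Schwann-like and 16.8 to 33.8 in neuron-like cells and at most at 4.22 in the others. Of the A-type plexins, Plxna2 was at 61.5 to 138 CPM in neuron-like and 61.4 to 159 in Schwann-like cells without a called difference (−0.09 ± 0.19, adjusted p = 0.680). Plxna3 was highest in neuron-like cells (27.6 to 38.0 CPM), Plxna4 in Schwann-like cells (50.9 to 130), and Plxna1 was spread over all 4 classes at 15.2 to 49.2 CPM.

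**Figure D2:**
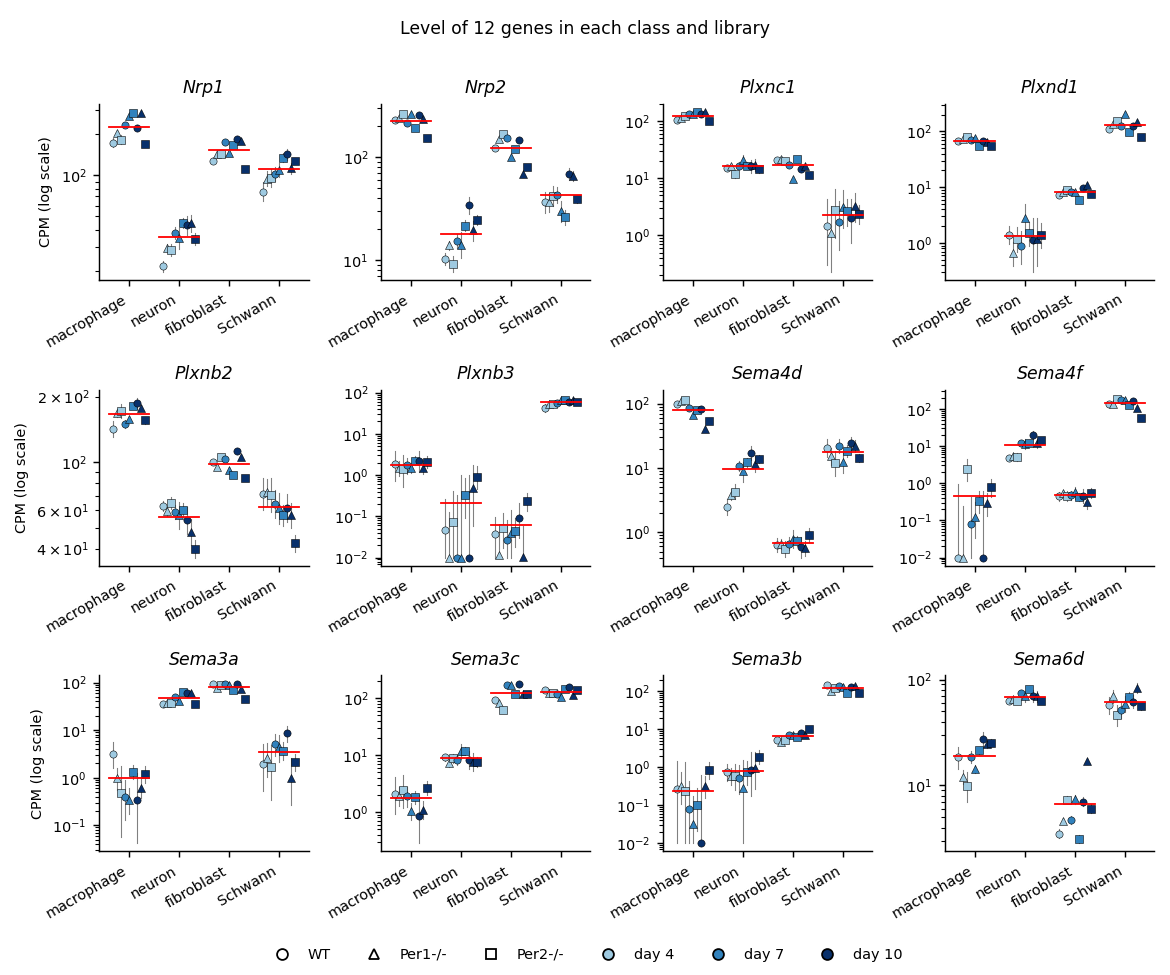
CPM (log scale) of 12 of the genes in each library of the 4 classes. Symbols give the genotype, shades the day, gray lines the exact Poisson 95% interval of 1 library and red lines the mean of 9 libraries, and values of 0 are drawn at the lower edge. Sema4d lies at 40.0 CPM or more in macrophage-like cells alone and Plxnb3 at 42.9 CPM or more in Schwann-like cells alone.

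The classes were compared within libraries, in 1 fit over sums of UMI with library as a block (edgeR's quasi-likelihood F-test, Benjamini-Hochberg adjusted over 15702 genes, threshold 0.05). Nearly all genes differ between cell types this distinct, so each count is given beside that over all genes. Of the 31 genes, macrophage-like against fibroblast-like cells gave 27 calls (82.3% of all genes tested), 12 higher (38.9% of all) and 15 lower (43.4%). Neuron-like against fibroblast-like cells gave 27 (80.3%), 15 higher (38.1%) and 12 lower (42.2%), and Schwann-like against fibroblast-like cells gave 28 (65.9%), 13 higher (30.1%) and 15 lower (35.8%). Macrophage-like against neuron-like cells gave 31 (85.9%), of which 10 were higher (41.7%) and 21 lower (44.2%). Against Schwann-like cells, macrophage-like cells gave 29 (73.2%), 9 higher (36.3%) and 20 lower (36.9%), and neuron-like cells 28 (75.7%), 14 higher (38.8%) and 14 lower (36.9%). The median log2 fold of the 31 genes for macrophage-like against neuron-like cells was −1.69, against −0.06 over all genes, and that of the 20 semaphorins −2.13.

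In macrophage-like against fibroblast-like cells, 5 of the 9 plexins were higher and 3 lower, both neuropilins were higher, and 5 of the 20 semaphorins were higher and 12 lower (38.9% and 43.4% of all genes). Whether ligands and receptors differed in this was not tested. Among the genes that were higher were Sema4d (log2 fold 7.11 ± 0.30 SE, adjusted p = 6.51e-19), Plxnd1 (3.22 ± 0.11, adjusted p = 1.01e-20) and Plxnc1 (3.10 ± 0.14, adjusted p = 1.98e-18). Plxnb3 was higher too (5.24 ± 0.35), on 45 UMI in all fibroblast-like cells. The neuropilins rose less, Nrp2 by 1.10 ± 0.20 and Nrp1 by 0.78 ± 0.09 (adjusted p = 8.54e-06 and 3.66e-09). Sema3d, Sema3a and Sema3c were lower, with log2 folds of −6.45 ± 0.38, −6.26 ± 0.27 and −5.94 ± 0.20. In neuron-like against fibroblast-like cells both neuropilins and Plxnd1 were lower (Nrp2 −3.31 ± 0.22, Nrp1 −2.63 ± 0.10, Plxnd1 −3.21 ± 0.15), and Sema6b (4.99 ± 0.20), Sema4f (3.91 ± 0.31), Sema4d (3.16 ± 0.28) and Sema6d (2.99 ± 0.20) were higher. In Schwann-like against fibroblast-like cells the largest differences were of Plxnb3 (9.84 ± 0.33, adjusted p = 2.39e-20) and Sema4f (7.93 ± 0.34, adjusted p = 5.12e-18). Plxna4 (5.49 ± 0.25), Sema3e (4.30 ± 0.40), Sema3b (3.94 ± 0.18), Plxnd1 (3.70 ± 0.12) and Plxnb1 (3.60 ± 0.18) were higher as well. Markers of fibroblasts summed to 7303 to 14093 CPM in Schwann-like cells and to 596 to 1084 in neuron-like and 242 to 818 in macrophage-like cells, against 22421 to 44869 in fibroblast-like cells, and the part of RNA from other cells in these folds was not tested.

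Fibroblast markers were also counted in the macrophage-like sums, and whether this RNA came from other cells or from the cells themselves was not tested. Over all libraries, the 19 fibroblast markers were in macrophage-like cells at 0.900% (Pdgfra) to 3.45% (Mmp2) of their fibroblast-like level. Within this range lay 7 of the 31 genes: Sema3d at 0.908%, Sema3a at 1.05%, Sema3c at 1.40%, Sema6a at 2.41%, Sema3f at 2.93%, Sema5b at 3.01% and Sema5a at 3.22%. The upper end of the range rests on Mmp2 alone, and the other 18 markers reached 1.97%, so that only Sema3d, Sema3a and Sema3c lay among these 18. In single libraries Sema6a reached 13.4%, Sema3f 8.58%, Sema5b 13.5% and Sema5a 8.70%, where Mmp2 reached 9.23%. The part of fibroblast RNA in these levels was not tested. Sema3g (3.69%) and Sema3b (3.93%) lay just above. All 9 plexins were above it, from 14.8% (Plxna3) and 23.1% (Plxnb1) to 700% (Plxnc1), 797% (Plxnd1) and 3608% (Plxnb3). Nrp1 was at 162% and Nrp2 at 174% of the fibroblast-like level, and Sema4d at 10499%.

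**Figure D3:**
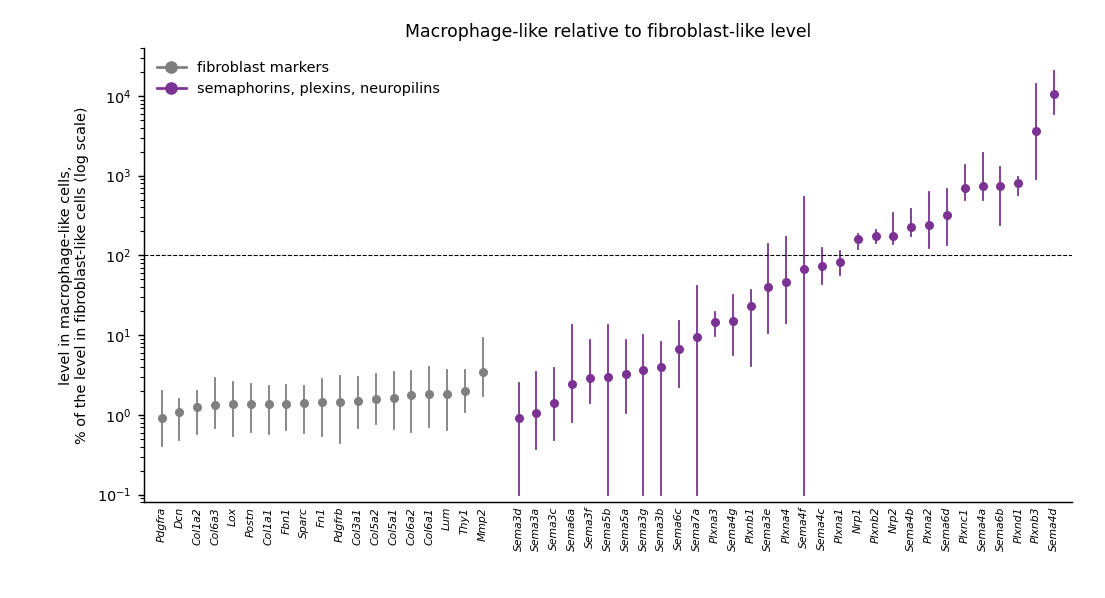
Level in macrophage-like cells as a percentage of that in fibroblast-like cells (log scale) for 19 fibroblast markers (gray) and the 31 genes (purple). Points are over all libraries and lines run from the lowest to the highest library, with 0 drawn at the lower edge, and the dashed line marks 100%. Sema3d, Sema3a and Sema3c lie among the markers, which reach 3.45%.

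Of the other genes of the pathway, a list of 54 with coreceptors, neuropilin ligands of the VEGF family and cytoplasmic effectors (chosen with earlier results of these data known), 53 were tested between classes. Macrophage-like against fibroblast-like cells gave 20 higher and 25 lower (38.9% and 43.4% of all genes, as above), among them the plexin A1 partners Tyrobp (9.46 ± 0.28) and Trem2 (9.21 ± 0.29), Farp1, which binds A-type plexins inside the cell (−4.88 ± 0.16), and Vegfa, a neuropilin ligand (−5.26 ± 0.18). Neuron-like against fibroblast-like cells gave 21 higher and 25 lower (38.1% and 42.2% of all genes). The collapsin response mediators Crmp1 (6.45 ± 0.29) and Dpysl5 (6.46 ± 0.29) and the kinase Gsk3b (1.29 ± 0.04) were higher there, and the receptor kinase Erbb2 was lower (−4.32 ± 0.17). Schwann-like against fibroblast-like cells gave 30 higher and 15 lower (30.1% and 35.8% of all genes), with Nrcam, an adhesion molecule of neuropilin complexes (4.45 ± 0.27), Mical3 (2.16 ± 0.12) and the actin-severing Cfl1 (1.25 ± 0.07) higher and Vegfa lower (−3.39 ± 0.17).

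The days were compared in each class with genotype as a factor, so that the 3 genotypes serve as the repeats of a day. Day 10 carries another feature table and Cell Ranger version than days 4 and 7, and these cannot be told apart from the day. In Per1-/- the Xist level also differed between day 4 and days 7 and 10. The part of embryo sex in the day changes was not tested. The change of these genes was broadest in neuron-like cells, as was that of all genes. Of all genes tested, 46.2% were called there on day 10 against day 4, and 14.4% to 18.8% in the other classes. There 10 of 29 genes tested were called on day 7 against day 4 (21.8% of all genes tested) and 20 of 29 on day 10 against day 4 (46.2%), with 9 higher (23.4%) and 11 lower (22.8%).

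In neuron-like cells the ligands Sema3e, Sema4d and Sema4f rose and Sema3f and Sema4c fell, when the class was taken as a whole. Several of these directions turned within 1 cluster or with cells classed by markers. Sema3e was at 3.50, 3.70 and 2.62 CPM on day 4, 13.7, 18.3 and 14.7 on day 10 (WT, Per1-/- and Per2-/-), so that no value of day 10 overlapped with day 4 (log2 fold of day 10 against day 4 2.31 ± 0.18, adjusted p = 1.76e-06). Sema4d was at 2.47, 3.84 and 4.27 CPM on day 4 and at 17.3, 11.5 and 13.8 on day 10 (2.07 ± 0.22, adjusted p = 1.97e-05). Sema4f was at 4.80, 5.38 and 5.09 CPM on day 4 and at 12.1, 11.6 and 12.4 on day 7, and its change to day 10 was called as well (1.65 ± 0.18, adjusted p = 1.89e-05). All 3 ligands were thus higher in every genotype on day 10. The receptors Nrp2 (1.26 ± 0.22), Plxna4 (0.83 ± 0.19), Nrp1 (0.68 ± 0.14) and Plxna3 (0.37 ± 0.10) rose too, as did Sema3a (0.53 ± 0.19) and Sema4g (0.45 ± 0.10). The summed macrophage markers of the neuron-like cells were at 24.2, 56.9 and 20.4 CPM on day 4 and 36.1, 98.3 and 181 on day 10, higher in each genotype with ranges that overlapped. Nrp1, Nrp2 and Sema4d were highest in macrophage-like cells, and the part of these markers in their rise was not tested. Sema3f was at 35.5, 38.4 and 34.0 CPM on day 4, 21.3, 18.8 and 19.4 on day 7, then 9.50, 5.77 and 7.28 on day 10 (−2.18 ± 0.14, adjusted p = 5.20e-07). Sema4c fell as well (−1.45 ± 0.14), with 47.1, 42.1 and 48.4 CPM on day 4 and 14.8, 20.2 and 13.5 on day 10. Plxna2 was at 134, 138 and 128 CPM on day 4 and 73.2, 61.5 and 69.2 on day 10 (−0.89 ± 0.09, adjusted p = 1.11e-05). The other genes that fell were Sema7a (−1.08 ± 0.20), Sema5b (−1.04 ± 0.37), Sema3d (−0.89 ± 0.33), Sema6a (−0.78 ± 0.14), Plxnb1 (−0.63 ± 0.13), Sema4b (−0.41 ± 0.13), Plxnb2 (−0.34 ± 0.10) and Sema6c (−0.34 ± 0.09). The summed mesothelial markers, at 37.4, 35.9 and 94.5 CPM on day 4 and 5.59, 2.40 and 4.47 on day 10, were lower too, and their part was not tested. Within cluster 10, 1 of the 2 clusters of the neuron-like class, 5 of these directions turned: Sema3a was at −0.41 ± 0.18, Sema7a at 1.01 ± 0.42, Sema6c at 0.28 ± 0.14, Sema4b at 0.03 ± 0.17 and Sema3f at 0.90 ± 0.29. There Nrp2 (0.37 ± 0.21, adjusted p = 0.191) and Nrp1 (0.26 ± 0.13, adjusted p = 0.141) were not called. With cells classed by markers Sema3a (−0.31 ± 0.23), Sema3d (0.41 ± 0.40) and Sema3e (−0.07 ± 0.14) turned.

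On day 7 against day 4 Sema3e (1.80 ± 0.18), Sema4d (1.59 ± 0.22), Sema4f (1.21 ± 0.17) and Nrp1 (0.58 ± 0.14) had already risen in neuron-like cells. Sema3f (−0.87 ± 0.12), Sema7a (−0.87 ± 0.18), Sema4c (−0.74 ± 0.13), Plxna2 (−0.49 ± 0.09), Plxnb1 (−0.40 ± 0.13) and Sema6b (−0.38 ± 0.10) had fallen. In cluster 10 alone Sema3f was called in the opposite direction (1.82 ± 0.27, adjusted p = 6.88e-04), and Sema7a (1.11 ± 0.42) and Plxnb1 (0.04 ± 0.19) turned without a call. Without WT on day 7, 6 genes were called in place of 10. The share of all genes called in that fit is not given.

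The neuron-like class is a mixture of 2 clusters whose shares moved with the day, and the part of these shares in the day changes was not tested. Cluster 5, led by Miat and Lhx3, held 1437, 1510 and 1017 cells of WT, Per1-/- and Per2-/- on day 4 and 12 to 305 in each later library, and cluster 10, led by Snhg11, Scg3 and Stmn3, held 132 to 690 cells per library. Within cluster 10 alone, Sema3e (1.21 ± 0.20), Sema4d (1.79 ± 0.27), Sema4f (0.97 ± 0.24), Plxna4 (0.85 ± 0.25), Plxna3 (0.45 ± 0.13) and Sema4g (0.44 ± 0.14) were still higher on day 10. Plxna2 (−0.92 ± 0.11), Sema6a (−0.87 ± 0.17), Sema4c (−0.58 ± 0.17), Plxnb2 (−0.48 ± 0.12) and Sema6d (−0.39 ± 0.10) were lower, which makes 12 calls with Sema3f. In cluster 10 Sema3f was at 2.64, 3.82 and 4.16 CPM on day 4, 12.6, 11.9 and 13.3 on day 7, then 7.17, 4.90 and 6.54 on day 10, a rise of 0.90 ± 0.29 on the log2 scale (adjusted p = 0.0291). In cluster 5 Sema3f was at 40.9, 43.7 and 39.8 CPM on day 4 and at 40.4, 26.1 and 43.9 on day 7. On day 10 it was at 12.3 CPM in Per1-/- and 21.0 in Per2-/-, on 6 and 13 UMI. No test was run within cluster 5, and the part of the cluster shares in the fall over the whole class was not tested. When cells were put into classes by counting markers, without clusters, 13 genes were called, and Sema3e was not called (−0.07 ± 0.14, adjusted p = 0.755). For the counts of 12 and 13 the share of all genes called is not given, so they are not set against the main count.

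In macrophage-like cells, 5 of 27 genes tested were called on day 10 against day 4 (16.1% of all genes tested), 1 higher (8.55%) and 4 lower (7.60%). Sema6d was at 18.4, 12.1 and 9.81 CPM on day 4, 18.6, 14.4 and 21.4 on day 7, then 27.2, 24.5 and 25.2 on day 10, with no overlap between days 4 and 10 (1.04 ± 0.19, adjusted p = 0.0130). Sema4d fell by 0.88 ± 0.18 on the log2 scale (adjusted p = 0.0196), and its day 10 values of 81.7, 40.0 and 53.4 CPM lay below all of day 4. Plxna2 fell from 59.9, 50.1 and 62.0 CPM to 46.2, 34.8 and 25.3 (−0.66 ± 0.17, adjusted p = 0.0356). Sema3e was at 4.20, 3.90 and 6.70 CPM on day 4 and 0.345, 0.548 and 0.727 on day 10 (−2.90 ± 0.53, adjusted p = 0.0134). Sema6a was at 7.09, 2.60 and 2.87 CPM on day 4 and 0.690, 0.419 and 1.87 on day 10 (−2.09 ± 0.54, adjusted p = 0.0350). With cells put into classes by markers the difference of Sema6a was 1.38 ± 0.72, in the other direction, and over all libraries its level was 2.41% of the fibroblast-like one. The summed fibroblast markers of the macrophage-like cells were 580, 517 and 334 CPM on day 4 and 421, 331 and 818 on day 10. Their endothelial markers were low but did not overlap, at 4.20, 5.78 and 4.07 CPM on day 4 and 8.62, 16.8 and 8.20 on day 10. The part of either in the calls was not tested. With cells put into classes by markers 2 genes were called in place of 5, Sema4d (−1.18 ± 0.13) and Plxna2 (−0.76 ± 0.17), and Sema6d (0.79 ± 0.21, adjusted p = 0.0656) and Sema3e (−1.06 ± 0.63, adjusted p = 0.294) were not. How many of all genes were called with these classes is not given, so the lower count is not read as particular to these genes. The library of WT on day 10 had 247 macrophage-like cells by clusters and 1054 by markers, and 479 of its cells were in an unnamed cluster with macrophage markers (cluster 14, of which 68.1% was marked as doublets). The count of 5 changed when 1 library was left out. Without Per1-/- on day 4 no gene was called, and without Per1-/- on day 10 there was 1 call. There were 3 calls without any 1 of WT on day 7 or 10, Per1-/- on day 7 and Per2-/- on day 7 or 10. The share of all genes called in these fits is not given, so these counts are not read as particular to these genes. On day 7 against day 4 no gene of 27 was called by edgeR (0.471% of all genes), with 8 at an unadjusted p under 0.05 and 4 calls by DESeq2. For the counts of 8 and 4 the share over all genes is not given. Within the largest macrophage-like cluster (cluster 4, led by Fcrls and Pf4) Sema6d (0.95 ± 0.20), Sema4d (−0.85 ± 0.20), Plxna2 (−0.78 ± 0.19) and Sema3e (−2.44 ± 0.59) were called on day 10.

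In fibroblast-like cells, day 7 against day 4 gave 3 of 30 calls (2.05% of all genes): Plxna4 (1.41 ± 0.25), Sema3c (0.94 ± 0.11) and Sema6c (0.44 ± 0.09), all higher. Leaving out 1 library left 0 to 2 of them, with 0 without Per2-/- on day 4 or any library of day 7, and 1 without WT or Per1-/- on day 4 or WT on day 10. Day 10 against day 4 gave 7 of 30 (18.8%), 6 higher (9.93%) and 1 lower (8.85%). Sema3c was at 92.3, 81.7 and 62.6 CPM on day 4, 171, 170 and 119 on day 7, then 180, 121 and 120 on day 10 (0.79 ± 0.11, adjusted p = 0.00463). Sema6c was at 8.70, 9.74 and 10.2 CPM on day 4 and 15.5, 15.4 and 15.7 on day 10 (0.67 ± 0.09, adjusted p = 0.00315). Both ligands were thus higher in every later library than on day 4. Plxna4 rose from 0.686, 0.767 and 0.555 CPM to 2.45, 2.31 and 3.21 (1.95 ± 0.26, adjusted p = 0.00352), at a low level throughout. The other calls were Sema3g (1.30 ± 0.29), Sema3b (0.73 ± 0.16), Plxna3 (0.45 ± 0.09) and, lower, Sema3e (−0.89 ± 0.22). The summed Schwann cell markers of the fibroblast-like cells were at 20.4, 17.4 and 13.1 CPM on day 4 and 41.3, 109 and 54.6 on day 10, without overlap. Of the genes called higher, Plxna4, Sema3b and Sema3g were highest in Schwann-like cells, and the part of these markers in the changes was not tested. Without Per1-/- on day 4 there were 4 calls and without Per1-/- on day 10 there were 3. For the counts without 1 library, on day 7 and day 10, the share of all genes called is not given. The largest fibroblast-like cluster was 0 or 1 in each library of days 4 and 7 and 2 or 11 in each of day 10, and within cluster 3 alone Plxna4 (2.60 ± 0.49), Sema3b (0.85 ± 0.16), Sema6c (0.71 ± 0.13) and Sema3c (0.62 ± 0.15) were called on day 10 along with Sema7a (1.72 ± 0.42) and Sema6a (0.75 ± 0.16).

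In Schwann-like cells no gene of 25 was called on day 7 against day 4 by edgeR (0.732% of all genes), with 6 at an unadjusted p under 0.05, and 3 of 25 were called on day 10 (14.4%), 2 higher (7.77%) and 1 lower (6.59%). Nrp1 was at 76.0, 94.5 and 96.0 CPM on day 4 and 143, 113 and 128 on day 10 (0.54 ± 0.13, adjusted p = 0.0259). Sema6a was at 6.33, 7.81 and 5.49 CPM on day 4 and 13.8, 15.7 and 16.2 on day 10 (1.25 ± 0.29, adjusted p = 0.0188). Plxnb2 was at 71.6, 72.5 and 70.8 CPM on day 4 and 61.6, 57.0 and 42.3 on day 10 (−0.42 ± 0.13, adjusted p = 0.0485). Days 4 and 10 did not overlap for any of these 3 genes. The summed neuron markers of the Schwann-like cells did not overlap either, at 1862, 2114 and 2479 CPM on day 4 and 1488, 1062 and 894 on day 10, and their part in these changes was not tested. No call was left without WT or Per2-/- on day 10, and 1 was left without WT on day 4 or Per1-/- on day 10. For these counts the share of all genes called is not given.

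**Figure D4:**
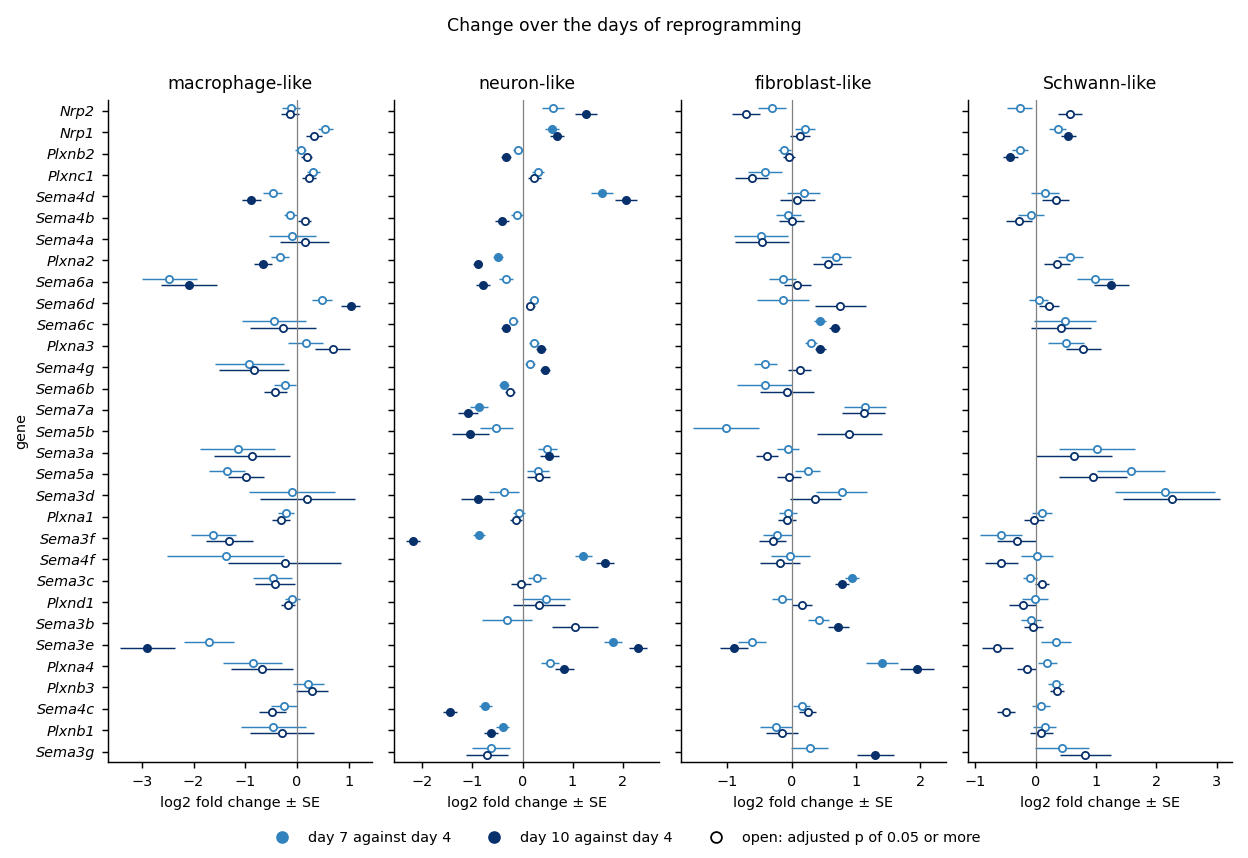
Log2 fold change ± SE of each gene on day 7 (light) and day 10 (dark) against day 4 in the 4 classes, from the fits over 9 libraries. Filled points have an adjusted p under the threshold of 0.05. Filled points are most frequent in neuron-like cells, where Sema3e (2.31) and Sema3f (−2.18) lie at the edges.

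Whether the day acted differently between classes was tested as an interaction, added after the day results were seen. Of the 31 genes, the change from day 4 to day 10 differed between macrophage-like and fibroblast-like cells for 9 (15.2% of all genes tested), neuron-like and fibroblast-like cells for 19 (34.6%), and Schwann-like and fibroblast-like cells for 6 (8.18%). It differed between macrophage-like and neuron-like cells for 9 (30.7%), macrophage-like and Schwann-like cells for 4 (6.94%), and neuron-like and Schwann-like cells for 10 (28.1%). The ligand Sema4d fell in macrophage-like and rose in neuron-like cells (difference −2.83 ± 0.27, adjusted p = 7.02e-07), and Sema3e did the same (−5.03 ± 0.61, adjusted p = 7.67e-06). With cells classed by markers the difference was kept for Sema4d (−2.69 ± 0.24) and was not called for Sema3e (−1.04 ± 0.50, adjusted p = 0.148). Plxnb2 fell in neuron-like and Schwann-like cells and differed from macrophage-like cells in both (macrophage-like minus neuron-like 0.64 ± 0.09, minus Schwann-like 0.70 ± 0.10). For Nrp2, which was called in neuron-like and not in fibroblast-like cells, neuron-like minus fibroblast-like was 1.91 ± 0.29. For Plxna4, called in fibroblast-like and not in Schwann-like cells, Schwann-like minus fibroblast-like was −2.11 ± 0.29 (adjusted p = 2.28e-04).

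Of the pathway genes outside the 3 families, some were called on day 10 against day 4 in each class, and the share over all genes is given beside each count. In neuron-like cells 20 of 52 were called (46.2% of all genes), 9 higher and 11 lower, with the adhesion molecules L1cam (4.85 ± 0.17) and Chl1 (3.56 ± 0.28), which form complexes with neuropilins, higher and Rnd3 lower (−1.11 ± 0.09). In macrophage-like cells 6 of 47 were called (16.1% of all genes), with Arhgef12 (0.46 ± 0.11) and Rras (0.60 ± 0.15) higher and Cspg4 (−3.19 ± 0.52) and Cd72, a Sema4d receptor of immune cells (−1.85 ± 0.32), lower. In fibroblast-like cells 10 of 54 were called (18.8% of all genes), 3 higher and 7 lower, among them Dpysl4 (1.13 ± 0.22), Mras (−0.51 ± 0.08), Farp1 (−0.68 ± 0.13) and Flt4 (−2.53 ± 0.48). In Schwann-like cells 12 of 47 were called (14.4% of all genes), 3 higher and 9 lower, and Mical1 (−1.45 ± 0.18), Cspg4 (−1.20 ± 0.15), Dpysl3 (−0.87 ± 0.12) and Nrcam (−1.80 ± 0.28) fell.

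The genotypes were compared over the 3 days, since a day has 1 library per genotype, and no gene of the 3 families was called in any class by edgeR among the genes that passed the filter on low counts. With no such filter, Per1-/- against Per2-/- gave 4 calls in Schwann-like and 1 in macrophage-like cells, and Per2-/- against WT gave 1 in neuron-like cells. These unfiltered counts stand without the share of all genes called. In macrophage-like cells this was 0 of 27 in each contrast, beside 0.0157% of all 12752 genes (Per1-/- against WT), 0% (Per2-/- against WT) and 0.00784% (Per1-/- against Per2-/-), and an unadjusted p under 0.05 was reached by 4, 4 and 5 genes. By DESeq2 there was 1 call in the last of these comparisons. In neuron-like cells it was 0 of 29 (0.00699%, 0% and 0% of all genes, with 1, 1 and 3 at an unadjusted p under 0.05). In fibroblast-like cells it was 0 of 30 (0% in each, with 5, 5 and 6), where DESeq2 called 1 in each of the last 2 contrasts. In Schwann-like cells it was 0 of 25 (0.0971%, 0% and 0%, with 3, 4 and 5). The counts at an unadjusted p and by DESeq2 stand without their shares over all genes and are not read as a result about these genes. The effect of Per1-/- against WT did not pass the test of a difference between macrophage-like and fibroblast-like cells for any of 31 genes (0% of all genes), with 5 at an unadjusted p under 0.05. The median log2 fold of the genes tested in macrophage-like cells in the same 3 contrasts was −0.27, 0.07 and −0.40, beside 0.00, 0.01 and 0.01 over all genes. For the 19 fibroblast markers in the same cells it was −0.35, 0.47 and −0.81, and the part of fibroblast RNA in the first medians was not tested. A fit with the fibroblast marker sum as a covariate called no gene either. It cannot decide this part, since no gene was called without the covariate.

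The smallest genotype p belonged to Sema4b, the class 4 ligand whose E-box is shown above. In macrophage-like cells it was at 18.1, 14.8 and 22.6 CPM in WT, 13.6, 12.4 and 13.6 in Per1-/- and 25.6, 23.6 and 24.2 in Per2-/- on days 4, 7 and 10. Per1-/- lay below and Per2-/- above WT on each day, and Per1-/- against Per2-/- was −0.88 ± 0.13 on the log2 scale (unadjusted p = 8.49e-05, adjusted p = 0.0985). Against WT, Per1-/- was at −0.40 ± 0.13 (adjusted p = 0.605) and Per2-/- at 0.48 ± 0.13 (adjusted p = 0.213). Its share of the fibroblast-like level was 226%, outside the range of the fibroblast markers. Sema6a (−1.73 ± 0.52, adjusted p = 0.215), Sema3f (−1.41 ± 0.42, adjusted p = 0.215) and Sema3c (−0.86 ± 0.35, adjusted p = 0.295) had an unadjusted p under 0.05 for Per1-/- against Per2-/- as well, and these 3 were at 2.41%, 2.93% and 1.40% of their fibroblast-like level in macrophage-like cells. In the same comparison 8 of the 19 fibroblast markers had an unadjusted p under 0.05, and their summed level was 517, 242 and 331 CPM in Per1-/- and 334, 636 and 818 in Per2-/- on days 4, 7 and 10. Nrp1 in Per1-/- macrophage-like cells was at 205, 273 and 286 CPM against 174, 236 and 223 in WT (0.34 ± 0.14, adjusted p = 0.696). Plxnc1 was at 113, 135 and 142 CPM in Per1-/- and 104, 134 and 136 in WT, 2 ranges that overlapped.

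Leaving out 1 library changed the genotype counts. Without Per2-/- on day 4, 7 genes passed the test for Per1-/- against Per2-/- in macrophage-like cells: Nrp2 (0.53 ± 0.13) and Plxna2 (0.40 ± 0.11) were higher in Per1-/-, and Sema4b (−0.86 ± 0.14), Sema6c (−1.66 ± 0.40), Sema3f (−1.72 ± 0.41), Sema3d (−2.30 ± 0.56) and Sema6a (−2.41 ± 0.36) lower. Of the last 5, Sema3d, Sema6a and Sema3f were at 0.908%, 2.41% and 2.93% of their fibroblast-like level, Sema6c at 6.74% and Sema4b at 226%. In the libraries left, the summed fibroblast markers were 517, 242 and 331 CPM in Per1-/- (days 4, 7 and 10). They were 636 and 818 in Per2-/- (days 7 and 10), and their part in these calls was not tested. Leaving out Per2-/- on day 4 also gave 5 calls for Per1-/- against Per2-/- and 4 for Per2-/- against WT in Schwann-like cells, and 1 for Per2-/- against WT in macrophage-like cells. Without Per1-/- on day 4, fibroblast-like cells gave 4 calls for Per1-/- against Per2-/- and 2 for Per1-/- against WT, and the test between classes gave 1. The share of all genes called in each of these fits without 1 library is not given. The counts are therefore not read as a result about these genes. In fibroblast-like cells the largest unadjusted differences of Per1-/- from WT were of Sema3d (−1.33 ± 0.41, adjusted p = 0.511), at 32.4 CPM (day 4) and 33.8 (day 7) in Per1-/-, where WT had 39.2 and 79.9, with the lowest value of Per1-/- and the highest of WT (117) on day 10, and Sema7a (0.89 ± 0.33, adjusted p = 0.587). The clusters of the fibroblast-like class differed between these genotypes as well. On day 7 cluster 0 held 3.40% of the class in Per1-/- and 38.5% in WT, and cluster 1 held 39.5% and 37.4%. On day 10 cluster 2 held 79.2% and 36.4%, and cluster 11 held 2.66% and 42.5%. The part of the clusters in the differences of Sema3d and Sema7a was not tested. Of the pathway genes that were tested, none was called for a genotype in any class by edgeR. In each comparison 3 to 11 were at an unadjusted p under 0.05. The share of all genes at such a p is not given, so these counts are not read as a result about the pathway genes. A missed threshold with 3 days as repeats does not show that genotypes are alike.

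**Figure D5:**
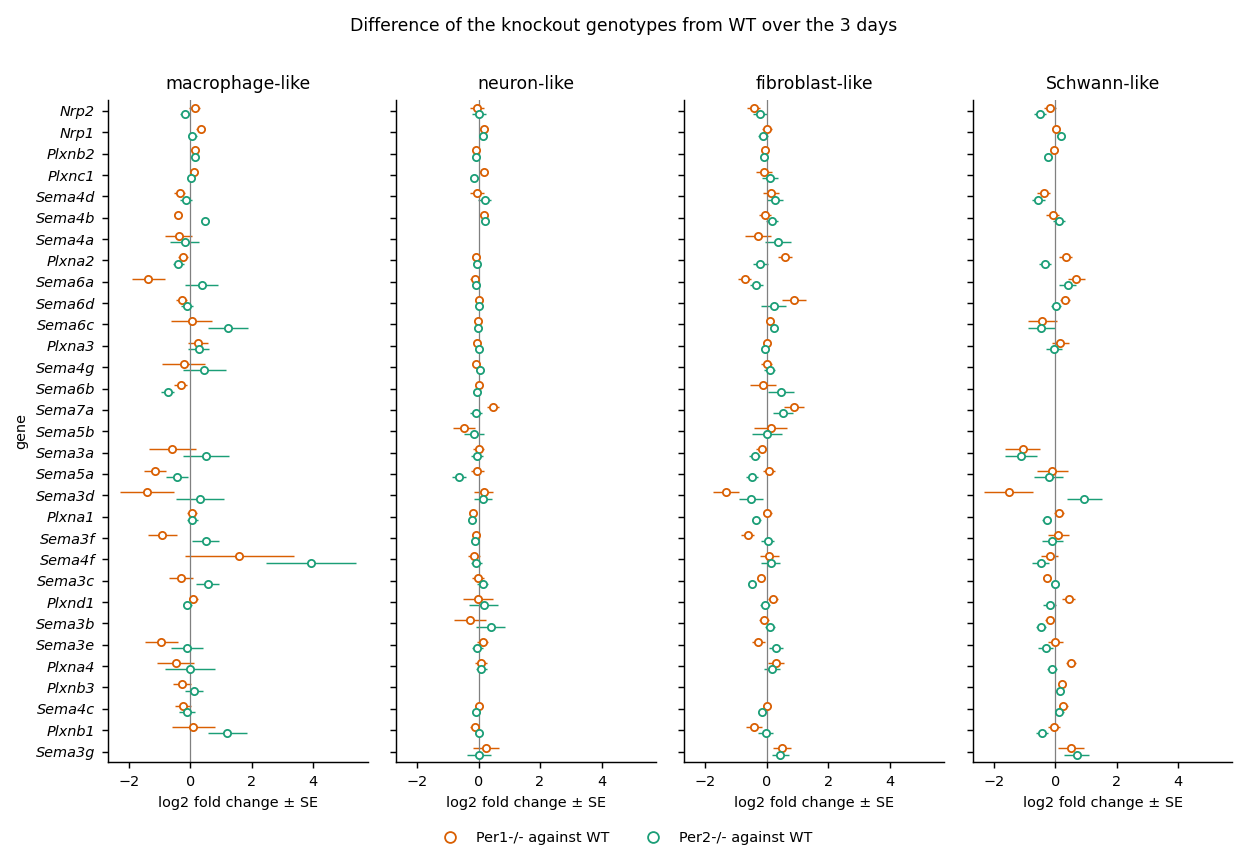
Log2 fold change ± SE of Per1-/- (orange) and Per2-/- (green) against WT over the 3 days in the 4 classes. All points are open, which stands for an adjusted p of 0.05 or more, and the widest bars belong to genes with few UMI such as Sema4f in macrophage-like cells (49 UMI in all).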

How the data were processed

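Single-cell RNA was measured in 9 libraries with a 3′ kit. Per the file headers, the authors made the deposited UMI counts per gene and barcode with Cell Ranger 4.0.0 (days 4 and 7, 31053 features) and 6.0.0 (day 10, 32285 features), while the processing notes name version 7.1 and mm10. The 30406 shared identifiers were used. Cells were required to have 3000 UMI or more, of which no more than 20% mitochondrial, and doublets were left out by rank of a simulation-based score at 0.8% per 1000 barcodes. Cells were clustered in scanpy 1.11.5 (2000 variable genes, 30 components, 15 neighbors, leidenalg 0.10.2 at resolution 1, 29 clusters), with the 31 genes and the pathway list kept out of clustering. A cluster took a class from markers, was left unnamed if over 80% of it came from 1 library, over 50% of it was marked as doublets, it had under 50 cells or another class had more markers among its leading genes, and a fibroblast cluster was left unnamed if at least 3 of its 10 leading genes were neuronal, a rule set after those genes were seen. The clusters so left unnamed made up part of the unnamed cells.

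UMI of a class were summed per library. Tests used edgeR 4.0.16 (R 4.3.3): TMM normalization, the filterByExpr filter and quasi-likelihood F-tests (two-sided), called at a Benjamini-Hochberg adjusted p of 0.05 across the genes that passed the filter. The SE beside an edgeR log2 fold is the absolute log2 fold divided by the square root of the F statistic. Fits within a class had day and genotype as factors, fits between classes had library as a block. Genes of all 3 families are named where called, the 4 pathway genes of smallest p are named per main comparison, and others are given by range. Genes named by largest level or smallest unadjusted p were chosen after their values were seen. Alternatives were DESeq2 1.42.0, other size factors, no filter, doublets kept, classes by marker counts, covariates, 1 cluster per class and leaving out each library. Counts of genes under these alternatives or at an unadjusted p stand without the share of all genes. They are not read as a result about the genes described. The scripts were tested on simulated data. Poisson 95% intervals cover counting error only. The genes and lists were chosen with earlier results of these data known. The labels do not say which libraries share a MEF preparation, so p-values measure the spread between these libraries only. Some items are not reported here.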

Additional observations from a re-analysis of the deposited data

Results flagged for a closer look

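The change from day 4 to day 10 differed between classes by the test of the difference itself (edgeR's quasi-likelihood F-test, Benjamini-Hochberg adjusted). Of the 31 genes this held for 9 between macrophage-like and neuron-like cells (30.7% of all genes), 9 between macrophage-like and fibroblast-like cells (15.2%), 4 between macrophage-like and Schwann-like cells (6.94%), 19 between neuron-like and fibroblast-like cells (34.6%), 10 between neuron-like and Schwann-like cells (28.1%) and 6 between Schwann-like and fibroblast-like cells (8.18%).

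In 6 of these differences the gene was called in opposite directions in the 2 classes. Sema3e was at −2.90 in macrophage-like and 2.31 in neuron-like cells on the log2 scale (difference −5.03 ± 0.61, adjusted p = 7.67e-06), and at −0.89 in fibroblast-like cells (neuron-like minus fibroblast-like 3.16 ± 0.42, adjusted p = 2.12e-05). Sema4d was at −0.88 in macrophage-like and 2.07 in neuron-like cells (−2.83 ± 0.27, adjusted p = 7.02e-07). Sema6a was at −2.09 in macrophage-like and 1.25 in Schwann-like cells (−3.13 ± 0.66, adjusted p = 0.0076), and at −0.78 in neuron-like cells (neuron-like minus Schwann-like −2.15 ± 0.47, adjusted p = 0.00194). Sema6c was at −0.34 in neuron-like and 0.67 in fibroblast-like cells (−1.06 ± 0.22, adjusted p = 0.00111). In 4 of these 6 a direction turned when cells were classed another way. With cells classed by markers, Sema6a was at 1.38 in macrophage-like cells and its difference from Schwann-like cells at 0.04 ± 0.56, and Sema3e was at −0.07 in neuron-like cells. Within cluster 10 of the neuron-like cells Sema6c was at 0.28, and its difference from fibroblast-like cells (−0.40 ± 0.26, adjusted p = 0.327) was not called. Sema4d kept both directions and the call of the difference under both of these alternatives, and for Sema6a in neuron-like and Schwann-like cells the directions and the call of the difference were kept too. The part of fibroblast RNA in the macrophage-like values of Sema6a was not tested.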

How the results depend on the processing

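The labels give no replicate numbers, so no fit pairs libraries by number, and the fits between classes have library and those within a class have genotype as a factor. The counts between classes and the classes of highest level kept to their main values within 1.5 times under each alternative run. Elsewhere counts of called genes moved, with these values, each given without the share of all genes called in that fit. With no filter on low counts there were 1 (Per1-/- against Per2-/-, macrophage-like), 1 (Per2-/- against WT, neuron-like), 4 (Per1-/- against Per2-/-, Schwann-like), and for day 7 3 in macrophage-like and 3 in Schwann-like cells, and for day 10 7 in Schwann-like cells. DESeq2 gave 1 (Per1-/- against Per2-/-, macrophage-like and fibroblast-like), 1 (Per2-/- against WT, fibroblast-like) and 4 (day 7, macrophage-like). Doublets kept gave 1 (day 7, fibroblast-like). Classes by marker counts gave 2, 13 and 5 (day 10 in macrophage-like, neuron-like and Schwann-like cells), 1 (day 7, fibroblast-like) and, for differences between classes, 3 (macrophage-like and fibroblast-like), 7 (neuron-like and fibroblast-like), 2 (Schwann-like and fibroblast-like) and 2 (macrophage-like and Schwann-like). One cluster per class gave 6 and 12 (neuron-like, days 7 and 10), 0 (fibroblast-like, day 7), and 4 and 9 for the first 2 differences. Clusters mostly of 1 library included gave 5 (macrophage-like and fibroblast-like) and 10 (Schwann-like and fibroblast-like). The cause was not tested.

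Leaving out 1 library gave 0 to 7 (Per1-/- against Per2-/-) and 0 to 1 (Per2-/- against WT) in macrophage-like cells, with 0 to 1 on day 7 and 0 to 5 on day 10. It gave 6 to 12 on day 7 in neuron-like cells, and 0 to 2 (Per1-/- against WT), 0 to 4 (Per1-/- against Per2-/-), 0 to 2 on day 7 and 3 to 8 on day 10 in fibroblast-like cells. In Schwann-like cells it gave 0 to 4 (Per2-/- against WT), 0 to 5 (Per1-/- against Per2-/-), 0 to 2 on day 7 and 0 to 2 on day 10. The difference between classes of the Per1-/- effect ranged from 0 to 1, and that of the day from 2 to 7 (macrophage-like and fibroblast-like), 2 to 5 (Schwann-like and fibroblast-like) and 1 to 4 (macrophage-like and Schwann-like). The lowest of these 3 came without Per1-/- on day 4 (2), Per2-/- on day 10 (2) and Per1-/- on day 4 (1), and the calls on day 7 in macrophage-like and Schwann-like cells (1 and 2) without Per2-/- on day 4.

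Of 4617 pairs of a named called value and an alternative, 4183 kept the call, 410 lost it and 24 changed sign; of the 2475 that left out 1 library, none changed sign. With 1 cluster per class the reversed log2 values were, in neuron-like cells, Sema7a 1.11, Sema3f 1.82 and Plxnb1 0.04 on day 7 and Sema6c 0.28, Sema3a −0.41, Sema4b 0.03, Sema7a 1.01 and Sema3f 0.90 on day 10. Sema3f was then −0.34 against Schwann-like cells, and the differences of the day were Sema3c 0.07, Sema3f 1.18 and Sema5b 0.20 (neuron-like and fibroblast-like) and Sema3f 1.28 (neuron-like and Schwann-like). With classes by marker counts they were Sema3a 0.02 (macrophage-like against Schwann-like), Sema6a 1.38 (macrophage-like, day 10), Sema3d 0.41, Sema3a −0.31 and Sema3e −0.07 (neuron-like, day 10), and for the differences Sema3e 0.32, Sema3c 0.84 and Sema6a 1.12 (macrophage-like and fibroblast-like) and Sema6a 0.04 (macrophage-like and Schwann-like). Sema3e was −0.05 (neuron-like against fibroblast-like) with neuronal clusters included, and Sema5a −0.69 (neuron-like against Schwann-like) with clusters mostly of 1 library included.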

Other observations

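Skeletal muscle-like, astrocyte-like and mesothelial-like cells, which enter no comparison, also held these genes. Skeletal muscle-like cells had Sema5a, a ligand with both attractive and repulsive activity, at 183 ± 54.7 CPM (SD, n = 9 libraries), with a range of 93.6 to 267 that overlapped with the 44.9 to 100 of fibroblast-like cells. Plxna2 was at 134 ± 20.8 CPM there, and Sema6a at 78.0 ± 9.24. Sema5b had its highest mean of all 7 named classes in these cells, at 7.41 ± 2.02 CPM, and Sema6b was at 26.0 ± 4.81 beside 22.8 ± 2.98 in neuron-like cells. By marker counts, only 186 of these 3027 cells were classed as skeletal muscle-like. Another 861 were classed as neuron-like, 603 as fibroblast-like and 1355 as none, so these levels are not of muscle cells alone.

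Astrocyte-like cells had Sema6a at 147 ± 32.4 CPM and Sema6d at 128 ± 18.6, above the neuron-like means of 70.9 ± 19.0 and 69.0 ± 6.20. Plxnb1 (38.4 ± 10.5) and Plxnb2 (124 ± 18.7) were present as well. Mesothelial-like cells had Sema3c at 140 ± 37.1 CPM, Sema3d at 122 ± 38.9 and Sema3f at 51.2 ± 11.5, and their class 3 sum of 433 ± 68.3 CPM was the highest of the 7 classes. The sums of these 3 classes rest on as few as 12 cells (mesothelial-like, WT on day 10), and no test was run on them.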
